A study of Homo sapiens with 2 samples.

Results

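The MYC, LIN28 and HMGA oncofetal genes are growth genes known from embryonic tissue and raised or switched on again in many tumors. The 10 taken here by name, of 20163 protein-coding genes in the annotation, were the MYC family transcription factor genes MYC, MYCN and MYCL, the RNA-binding protein genes LIN28A and LIN28B, the chromatin architecture genes HMGA1 and HMGA2, and the mRNA-binding protein genes IGF2BP1, IGF2BP2 and IGF2BP3. The rule that took them used no measured value, though earlier results of these data were known when they were chosen. ATAC-seq had been used to map open chromatin, since the Tn5 transposase inserts sequencing adapters where DNA is accessible. The cells were G401, an established SMARCB1-deficient malignant rhabdoid tumor line. In total 1 culture received DMSO, the solvent, and 1 received MAK683 at 3 µM, an inhibitor of Polycomb repressive complex 2 (PRC2) that acts through its EED subunit, both for 3 days. With 1 library per group nothing could be tested against the spread between cultures, no p-value is given, and every difference below is one between these libraries.

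PRC2 methylates histone H3 on lysine 27 and keeps developmental genes silent, and its loss of balance with the SWI/SNF complex, to which SMARCB1 belongs, is a feature of rhabdoid tumors. The genes studied here are linked in a known circuit. LIN28A and LIN28B block the maturation of let-7 microRNAs, and let-7 in turn represses HMGA2, MYC family members, the IGF2BP genes and LIN28B itself through sites in their mRNAs. MYC proteins pair with MAX and bind the E-box CACGTG.

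All 9 different 5p arms of let-7 and miR-98 in RefSeq, from 12 genes, share the same seed, so the members of this microRNA family read the same target sites. Below, 4 arms are shown to make the shared seed visible, with bases 2 to 8 in capitals.
hsa-let-7a-5p: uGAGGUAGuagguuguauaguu
hsa-let-7g-5p: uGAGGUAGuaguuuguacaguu
hsa-let-7i-5p: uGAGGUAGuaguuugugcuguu
hsa-miR-98-5p: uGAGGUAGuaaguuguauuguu

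RefSeq promoters (GRCh38.p14, 300 bases each) matched 6 of the 10 genes in 9 entries. No entry was found for MYC, LIN28A, HMGA2 and IGF2BP1. The E-box CACGTG, which reads the same on both strands, was present in 7.26% of all 35116 promoters in the table. It occurred 2 times in the IGF2BP3 promoter and 1 time in the LIN28B promoter beside the start site that the annotation marks as canonical, and in none of the entries of MYCN, MYCL, HMGA1 and IGF2BP2. The IGF2BP3 and LIN28B promoters are shown because they hold the E-box (capitals), and the MYCN promoter because MYCN stood apart in its surroundings, as described further on. GC content was 56.3% for IGF2BP3 and 39.0% for this LIN28B promoter, against a median of 58.7% over all promoters.
IGF2BP3 promoter, GRCh38.p14 chr7:23470442-23470741, minus strand: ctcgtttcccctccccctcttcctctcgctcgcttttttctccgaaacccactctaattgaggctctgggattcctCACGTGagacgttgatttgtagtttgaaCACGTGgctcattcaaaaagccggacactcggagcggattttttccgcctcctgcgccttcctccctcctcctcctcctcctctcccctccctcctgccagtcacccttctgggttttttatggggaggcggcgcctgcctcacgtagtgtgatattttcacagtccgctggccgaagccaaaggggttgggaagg
LIN28B promoter, GRCh38.p14 chr6:104956857-104957156, plus strand: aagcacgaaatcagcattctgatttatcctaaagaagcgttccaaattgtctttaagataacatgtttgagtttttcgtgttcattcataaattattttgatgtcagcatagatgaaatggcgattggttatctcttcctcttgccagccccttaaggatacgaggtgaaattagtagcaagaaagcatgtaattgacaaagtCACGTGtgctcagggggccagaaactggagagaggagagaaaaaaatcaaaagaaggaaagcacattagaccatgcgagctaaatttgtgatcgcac
MYCN promoter, GRCh38.p14 chr2:15940300-15940599, plus strand: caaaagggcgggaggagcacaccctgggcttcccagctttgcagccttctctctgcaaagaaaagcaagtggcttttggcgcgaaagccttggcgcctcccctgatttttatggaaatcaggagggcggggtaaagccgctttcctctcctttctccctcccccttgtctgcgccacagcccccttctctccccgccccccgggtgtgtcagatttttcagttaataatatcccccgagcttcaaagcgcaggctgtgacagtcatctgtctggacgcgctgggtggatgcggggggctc

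The files gave peaks of accessibility called on each library alone. The number of tags (Tn5 cuts) over a summit was scaled to tags per 1000000 of the library, RPM, from 16598348 tags in DMSO and 18265284 in MAK683, so that 1 tag was worth 0.0602 and 0.0547 RPM. The libraries held 114060 and 161184 peaks on the main chromosomes, and peaks were lower in MAK683 in general. The log2 ratio of MAK683 over DMSO had a median of -0.42 at the promoters of 16247 protein-coding genes, and among 57983 regions shared by both libraries genome-wide it was -0.33. Ratios of the members are therefore read against these medians. As a check of the label, the SMARCB1 promoter was without a peak in both libraries, as were those of PTPRC, CD3E and ALB, markers of leukocytes, T cells and hepatocytes.

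Every one of the 10 oncofetal genes had an accessible promoter in both cultures, with heights of 1.14 to 3.49 RPM in DMSO and 1.15 to 2.57 RPM in MAK683. No member had a promoter peak in only 1 of the libraries. Over all protein-coding genes, 70.9% had a promoter peak in both libraries, 1.84% in DMSO only and 7.87% in MAK683 only. Promoter height here is that of the tallest peak that comes as close as 3 kb to the start of transcription (TSS). In 9 of the 10 genes it was lower in MAK683, against a background of 78.4% of genes. The median log2 ratio of the members was -0.49, with a 95% order-statistic interval of -0.89 to -0.09 that holds the median of all genes. No member was at least 2-fold lower or 2-fold higher, where 5.75% and 3.37% of genes were.

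**Figure D1:**
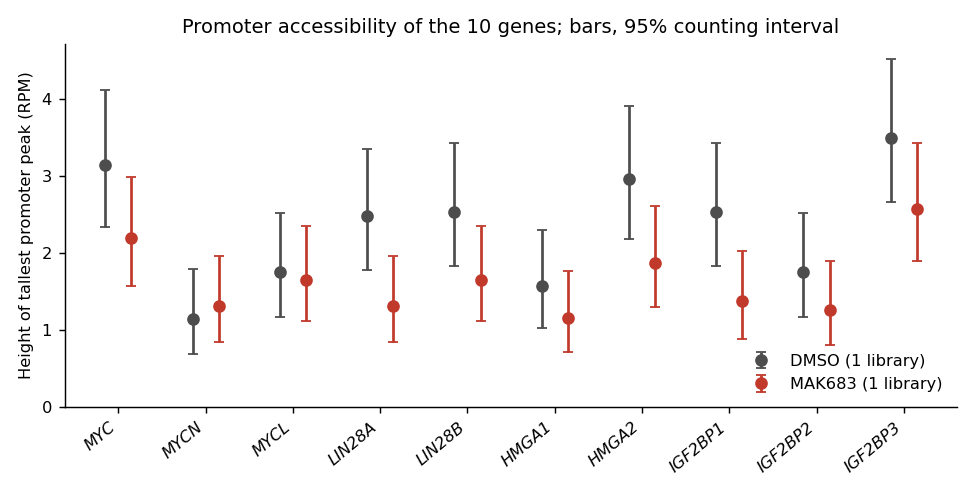
Height of the tallest promoter peak in RPM (vertical axis) for each of the 10 genes in the DMSO library (grey) and the MAK683 library (red), with 1 library per group. Points are heights and bars are 95% exact counting intervals. IGF2BP3, measured at a peak with its summit upstream of the gene, is the tallest in both libraries. Only MYCN is higher in MAK683.

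Among the MYC family, which encodes transcription factors that drive growth and metabolism, the order of promoter height was MYC, MYCL and MYCN in both libraries. The MYC promoter on chromosome 8 had 52 tags in DMSO (3.13 RPM, 95% exact interval 2.34 to 4.11) and 40 in MAK683 (2.19 RPM, 1.56 to 2.98). The log2 ratio was -0.52 (95% counting interval -1.11 to 0.08). The peak was about 4.8 kb wide in both libraries (4772 and 4753 bp), and its DMSO summit lay 607 bp upstream of the canonical TSS, within a coding exon of the longer MYC transcripts and an intron of CASC11. A separate peak 2.09 kb upstream had 27 and 17 tags.

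MYCN, the family member known from neuroblastoma, had the lowest promoter of the 10 in DMSO, with 19 tags (1.14 RPM, 0.689 to 1.79), and 24 tags in MAK683 (1.31 RPM, 0.842 to 1.955). Its log2 ratio of 0.20 (-0.67 to 1.07) was the only one above 0 and stood at the 83.2 percentile of all genes. The summit was 400 bp upstream of the TSS in DMSO and 694 bp upstream in MAK683, inside the antisense gene MYCNOS, so the peak cannot be assigned to either of these genes. The peak was 719 bp long in DMSO and 3091 bp in MAK683. MYCL, known from lung cancer, had 29 and 30 tags (1.75 and 1.64 RPM), a log2 ratio of -0.09 (-0.83 to 0.65).

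For the LIN28 genes, the promoter of LIN28A was the most reduced of the 10. It had 41 tags in DMSO (2.47 RPM, 1.77 to 3.35) and 24 in MAK683 (1.31 RPM, 0.842 to 1.955), a log2 ratio of -0.91 (-1.64 to -0.18) at the 8.61 percentile of genes. The summit lay 1339 bp upstream of the TSS in DMSO and 1357 bp upstream in MAK683, in intergenic sequence. The other peaks at the LIN28A start were lower in the same direction. A region over the first coding exon had 19 and 7 tags, a log2 ratio of -1.58 (-2.83 to -0.33), and a region in the first part of the gene 2.00 kb downstream had 15 tags in DMSO and no peak in MAK683.

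LIN28B has an alternative start far upstream, and the canonical TSS lies inside the longer gene model. Its tallest peak that reaches the promoter window had 42 and 30 tags (2.53 and 1.64 RPM), a log2 ratio of -0.62 (-1.30 to 0.05). The summit of that peak lay 3252 bp upstream of the canonical TSS, in an intron of the longer transcripts. The region that covers the TSS was lower, with 25 and 16 tags, a log2 ratio of -0.78 (-1.69 to 0.12). A peak of 11 tags 2.45 kb downstream was found in DMSO only. The 201 bases around the summit of the tallest peak are shown, since this site and not the TSS carried the most tags at LIN28B. They hold no CACGTG.
LIN28B intronic summit, GRCh37 chr6:105401630-105401830, plus strand: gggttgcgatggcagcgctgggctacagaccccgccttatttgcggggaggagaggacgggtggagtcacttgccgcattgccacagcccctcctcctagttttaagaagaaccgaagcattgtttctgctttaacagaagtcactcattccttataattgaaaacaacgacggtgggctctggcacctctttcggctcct

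The HMGA genes encode small proteins that bend AT-rich DNA. HMGA1 had 26 and 21 promoter tags (1.57 and 1.15 RPM), a log2 ratio of -0.45 (-1.28 to 0.38). HMGA2, a let-7 target with high expression in embryos and in many tumors, had 49 tags in DMSO (2.95 RPM, 2.18 to 3.90) and 34 in MAK683 (1.86 RPM, 1.29 to 2.60). Its log2 ratio was -0.67 (-1.30 to -0.03). The summits lie within the pseudogene RPSAP52 on the other strand, so the peak cannot be assigned to HMGA2 alone. The intervals of the HMGA2 heights overlap between libraries, and its percentile among all genes was 25.2. A second HMGA2 peak 2.27 kb downstream had 14 tags in DMSO and none was called in MAK683.

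The IGF2BP genes encode proteins that bind and stabilize mRNAs, among them that of MYC. IGF2BP1 had 42 tags in DMSO (2.53 RPM, 1.82 to 3.42) and 25 in MAK683 (1.37 RPM, 0.886 to 2.02), a log2 ratio of -0.89 (-1.60 to -0.17) at the 9.63 percentile. Both IGF2BP1 summits lie in an intron of another annotated gene, so the peak cannot be assigned to IGF2BP1 alone. IGF2BP2 had 29 and 23 tags (1.75 and 1.26 RPM), a log2 ratio of -0.47 (-1.26 to 0.32). IGF2BP3 had the tallest peak of the 10 genes, with 58 tags in DMSO (3.49 RPM, 2.65 to 4.52) and 47 in MAK683 (2.57 RPM, 1.89 to 3.42), a log2 ratio of -0.44 (-0.996 to 0.11). The summits of that peak lay 3846 bp upstream of the IGF2BP3 TSS in DMSO and 4170 bp upstream in MAK683, outside the gene. The MAK683 summit fell in an exon of another annotated gene. The region over the IGF2BP3 TSS itself had 49 and 38 tags, a log2 ratio of -0.50 (-1.12 to 0.11), with its summit in the UTR of IGF2BP3.

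In order of height, the DMSO promoters ran from IGF2BP3, MYC and HMGA2 through LIN28B and IGF2BP1, equal in tags, and LIN28A to IGF2BP2 and MYCL, also equal, HMGA1 and MYCN. In MAK683 the first 3 were the same, followed by LIN28B and MYCL, IGF2BP1, LIN28A and MYCN, IGF2BP2 and HMGA1. The exact intervals of neighbours in each order overlapped, whereas in DMSO that of IGF2BP3 did not overlap those of IGF2BP2, MYCL, HMGA1 and MYCN. The IGF2BP3 height ranked here is that of the peak upstream of the gene. Its TSS region had 38 tags in MAK683 and 49 in DMSO, as many as the HMGA2 promoter. At 49 tags the DMSO interval (2.18 to 3.90 RPM) overlaps those of IGF2BP2, MYCL and HMGA1. The intervals of the log2 ratio lay wholly below 0 for LIN28A, HMGA2 and IGF2BP1, 3 of the 10, against 20.6% of protein-coding genes with a peak in both libraries, and all 10 intervals held the median of all protein-coding genes. These depths cannot separate any member from the general decrease of promoter height. Of 23 promoter regions of the members, 18 were found in both libraries, 4 in DMSO only and 1, at MYCN, in MAK683 only.

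**Figure D2:**
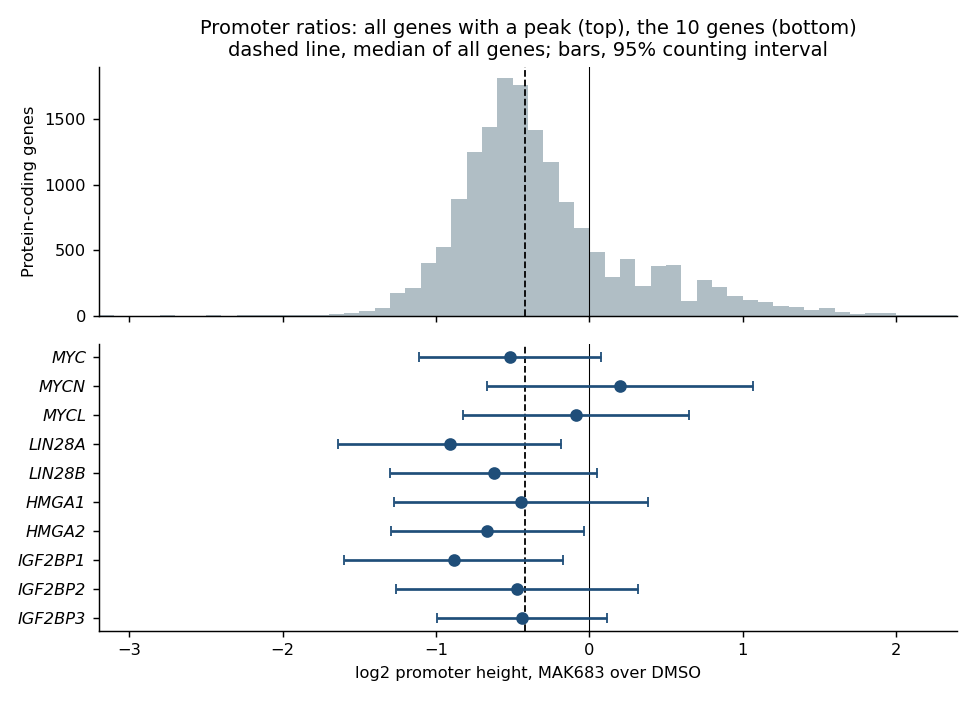
Upper panel, number of protein-coding genes (vertical axis) by log2 ratio of promoter height, MAK683 over DMSO (horizontal axis), for 16247 genes. Lower panel, the same ratio for the 10 genes with 95% counting intervals. The dashed line is the median of all genes at -0.42, which lies inside the interval of every one of the 10 genes.

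Inside the gene bodies, outside the promoter windows, the 10 genes held 203 peaks in DMSO and 107 in MAK683. The ratio was 0.527 (95% counting interval 0.417 to 0.666), while the peaks inside all protein-coding genes had a ratio of 1.20. This interval and the others of peak numbers take each peak as an independent count. Peaks of one locus share its copy number and coverage and are not replicates, so these intervals do not measure significance for a gene. Fewer peaks in MAK683 were found in 7 of the 10 members, against 47.5% of protein-coding genes with a peak in the body. Peaks taken in equal numbers from each library, by height, gave 203 and 94 peaks in the members, a ratio of 0.463, with 0.825 over all protein-coding genes.

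Most of these peaks lay in the long genes. HMGA2, with 141832 bp, held 70 peaks in DMSO and 58 in MAK683. IGF2BP2, with 181913 bp, held 60 and 23, and IGF2BP3, with 160283 bp, held 25 and 7. IGF2BP1 held 20 and 6, LIN28B 15 and 3, and LIN28A 7 and 3. The intervals of the ratio lay wholly below 1 for IGF2BP2 (0.237 to 0.620), IGF2BP3 (0.121 to 0.647), IGF2BP1 (0.120 to 0.747) and LIN28B (0.0579 to 0.691), and held 1 for HMGA2 (0.585 to 1.17). The short genes had few peaks, with 3 and 2 in MYC, 1 and 1 in MYCN, 0 and 1 in MYCL and 2 and 3 in HMGA1. Peaks inside HMGA2 also covered less DNA in MAK683, 40747 bp against 75266 bp.

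**Figure D3:**
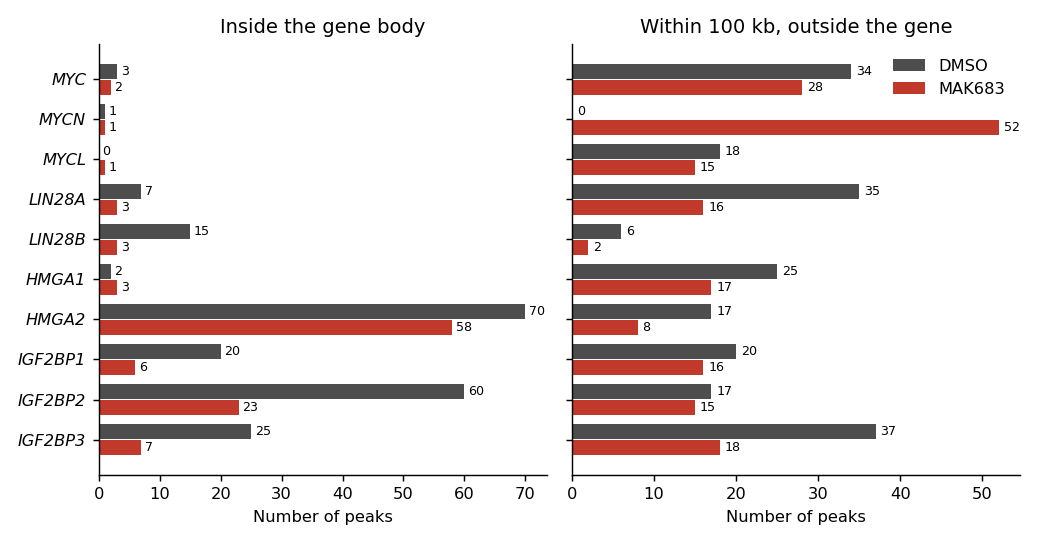
Number of peaks (horizontal axis) inside the gene body outside the promoter window (left) and within 100 kb of the TSS outside gene and promoter (right) for each of the 10 genes, in DMSO (grey) and MAK683 (red). By difference in number the largest excess of DMSO peaks inside a gene is at IGF2BP2, with 60 and 23 peaks, and the 52 MAK683 peaks around MYCN face 0 in DMSO.

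The body of HMGA2 carried the tallest site inside any of the long genes. Its tallest body region, 57.6 kb downstream of the TSS (GRCh37 chr12:66274779-66277459), had 44 tags in DMSO and 24 in MAK683, a log2 ratio of -1.01 (-1.73 to -0.29). The summit lies in a UTR of an HMGA2 transcript and in an exon of the antisense RNA gene HMGA2-AS1, whose start is within 3 kb, so the site may belong to either gene. Further regions of HMGA2 introns were lower as well. Those 52.8 kb, 119 kb and 126 kb downstream of the TSS went from 31 to 18, from 32 to 19 and from 25 to 14 tags. Their log2 ratios were -0.92, -0.89 and -0.97. Each interval lay below 0 but, like that of the tallest region, held the genome-wide median of -0.33. A region of 15 tags 64.5 kb downstream was found in DMSO only.

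Sites within the bodies of other members were found in DMSO and not in MAK683. LIN28A had such a region of 18 tags in an intron 8.17 kb downstream of the TSS, and LIN28B one of 15 tags in an intron 65.5 kb downstream. IGF2BP3 had intronic regions of 18 tags 73.0 kb downstream, near the small nucleolar RNA gene SNORD65, and of 15 tags 154 kb downstream. The tallest non-promoter region of HMGA1 reached over the 3′ end of the gene to the promoter of SMIM29, 12.2 kb downstream, and had 38 and 36 tags, a log2 ratio of -0.22 (-0.87 to 0.44).

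Peaks within 100 kb of a TSS, outside gene and promoter, were counted as candidate enhancers by distance only. There were 209 in DMSO and 187 in MAK683, a ratio of 0.895 (0.735 to 1.09). Of these, 52 MAK683 peaks and no DMSO peak lay around MYCN. The sum over the surroundings of all protein-coding genes gave 1.003, inside the interval of the 10 members. Without MYCN, which was left out after its values were seen, the numbers were 209 and 135, a ratio of 0.646 (0.520 to 0.802). No gene was left out of the sum over all protein-coding genes, so 1.003 is not a like counterpart of 0.646. Fewer peaks in MAK683 were found at 9 of the 10 genes, against 47.1% of protein-coding genes with such a peak. LIN28A had 35 and 16, IGF2BP3 37 and 18, HMGA2 17 and 8, HMGA1 25 and 17 and LIN28B 6 and 2. The numbers were closer at MYC with 34 and 28, MYCL with 18 and 15, IGF2BP1 with 20 and 16 and IGF2BP2 with 17 and 15. Of the distal peaks, 47 in DMSO and 42 in MAK683 lay within 3 kb of the TSS of another gene.

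The tallest distal region of MYC, 74.0 kb downstream of its TSS in an intron of the noncoding gene PVT1 (GRCh37 chr8:128819978-128824009), had 46 tags in DMSO and 42 in MAK683. Its log2 ratio of -0.27 (-0.87 to 0.33) was within counting error of 0. Those of LIN28B (97.2 kb upstream, at the promoter of HACE1, 44 and 34 tags), IGF2BP2 (87.9 kb upstream, 40 and 28 tags), IGF2BP1 (89.1 kb upstream, near UBE2Z, 29 and 27 tags) and MYCL (18.4 kb downstream, near TRIT1, 27 and 20 tags) were lower with intervals that held 0.

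Larger contrasts were found at IGF2BP3, HMGA1, HMGA2 and LIN28A. Of the distal intervals printed for them, only that at the TRA2A promoter lay wholly below the genome-wide median of -0.33. The others held that median. The region 61.5 kb upstream of IGF2BP3 (GRCh37 chr7:23570679-23573135) had 43 tags in DMSO and 20 in MAK683, a log2 ratio of -1.24 (-2.01 to -0.48). It is the promoter of TRA2A, a splicing factor gene. A region 20.5 kb upstream of IGF2BP3 had 33 and 21 tags, and regions of 17 tags 16.1 kb upstream and of 16 tags 58.8 kb upstream were found in DMSO only. The region 61.3 kb downstream of the LIN28A TSS, at the starts of HMGN2 and DHDDS-AS1, had 39 and 25 tags, a log2 ratio of -0.78 (-1.50 to -0.06). MYCL had a DMSO region of 17 tags 10.6 kb downstream without a MAK683 peak.

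For HMGA1 and HMGA2 the distal regions with the largest difference in tags were intergenic and away from any annotated start. At HMGA1, 10.3 kb upstream, the numbers were 26 and 14 tags, a log2 ratio of -1.03 (-1.97 to -0.09). At HMGA2, 95.3 kb upstream, they were 28 and 15, a log2 ratio of -1.04 (-1.94 to -0.13). The 201 bases around their summits are shown since no other annotated start lies within 3 kb of them. The HMGA2 window is rich in G and C at 72.1% with 19 CpG, and the HMGA1 window holds 56.7% and 1 CpG, against medians of 50.7% and 2 CpG over 199505 summit windows genome-wide.
HMGA1 distal summit, GRCh37 chr6:34194272-34194472, plus strand: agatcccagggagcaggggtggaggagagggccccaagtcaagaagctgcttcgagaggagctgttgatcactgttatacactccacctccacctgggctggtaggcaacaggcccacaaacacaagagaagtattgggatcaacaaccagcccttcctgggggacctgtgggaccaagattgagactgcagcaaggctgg
HMGA2 distal summit, GRCh37 chr12:66122869-66123069, plus strand: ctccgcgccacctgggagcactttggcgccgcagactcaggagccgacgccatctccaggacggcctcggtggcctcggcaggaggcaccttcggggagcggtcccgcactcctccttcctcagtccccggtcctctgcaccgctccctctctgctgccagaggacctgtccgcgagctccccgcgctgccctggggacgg

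The members had 164 shared regions outside promoters, and the median of their log2 ratios was -0.50 (95% order-statistic interval -0.55 to -0.40). Lower heights in MAK683 were found at 149 of them, 90.9%, against 76.2% of all shared regions genome-wide. The median was -0.53 over 74 regions inside genes and -0.41 over 90 distal regions. By gene it ran from -0.19 over 16 regions at IGF2BP1 to -0.73 over 4 regions at LIN28B, with -0.61 over 42 regions at HMGA2 and -0.59 over 20 at IGF2BP3. No shared region of the members outside promoters had an interval wholly above 0, where 0.624% of all shared regions did. An interval wholly below 0 was found at 17, 10.4%, against 8.27% of all shared regions, and one wholly below the genome-wide median at 4, 2.44%, against 1.07%. All 9 regions of 1.5 RPM or more whose interval excluded 0 were lower in MAK683. Over all shared regions, of any height, intervals below 0 were also far more frequent than those above, at 8.27% and 0.624%. The direction of the 9 is therefore not particular to the members. The share at 1.5 RPM or more was not counted genome-wide. Regions of one locus share its copy number and coverage and are not replicates.

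Of the 99 non-promoter regions with 15 tags or more, 8 were found in DMSO only, 8.08%, and 6 in MAK683 only, 6.06%. The shares over all regions of that height, promoters included, were 3.81% in DMSO only and 11% in MAK683 only. The 8 DMSO regions lay at IGF2BP3, LIN28A, LIN28B, HMGA2 and MYCL, and all 6 MAK683 regions lay at MYCN. Over all heights, 53 of the 76 MAK683-only regions of the members were at MYCN.

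MYCN was unlike the other 9 genes in its surroundings. Within 100 kb, outside gene and promoter, no DMSO peak and 52 MAK683 peaks were called. Their heights ran from 7 to 16 tags with a median of 10, so each was low, and the tallest reached 0.876 RPM. Among 2468 protein-coding genes with no DMSO peak in this space, MYCN had the most MAK683 peaks. The next gene had 44 and the median gene 1. Over all protein-coding genes, 12 including MYCN had an excess of 52 or more MAK683 peaks in this space. With peaks taken in equal numbers from each library the count was 37, with a −log10 q of at least 5 it was 23, and with a −log10 q of at least 10 it was 2, each against 0 in DMSO.

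The 6 tallest of these regions, with 15 or 16 tags each, lay 99.1, 48.7 and 27.2 kb upstream and 9.78, 43.0 and 98.2 kb downstream of the MYCN TSS. All were intergenic but the last, which lies in an intron of GACAT3. Closer in, a region over a coding exon of MYCN 1955 bp downstream of the TSS had 13 tags in MAK683 and no DMSO peak. A region 2.97 kb downstream, in the intron and at an exon of a MYCN transcript without a defined coding sequence, had 8 tags in DMSO and 22 in MAK683, a log2 ratio of 1.32 (0.15 to 2.49). It was the only region of any member, promoters included, whose interval lay wholly above 0. That is 1 among 18 shared promoter regions and 164 other shared regions, where 0.624% of all shared regions had such an interval. Its 8 DMSO tags are near the lowest called height of 6 tags. The sequences around the summit of this region and around the distal summit 43.0 kb downstream are shown as examples of sites higher in MAK683. The latter tied at 16 tags with the summit 98.2 kb downstream. Neither holds CACGTG.
MYCN intronic summit, GRCh37 chr2:16083542-16083742, plus strand: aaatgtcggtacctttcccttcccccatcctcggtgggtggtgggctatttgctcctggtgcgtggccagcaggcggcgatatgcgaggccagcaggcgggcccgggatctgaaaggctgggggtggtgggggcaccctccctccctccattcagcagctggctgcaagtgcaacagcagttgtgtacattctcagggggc
MYCN distal summit, GRCh37 chr2:16123525-16123725, plus strand: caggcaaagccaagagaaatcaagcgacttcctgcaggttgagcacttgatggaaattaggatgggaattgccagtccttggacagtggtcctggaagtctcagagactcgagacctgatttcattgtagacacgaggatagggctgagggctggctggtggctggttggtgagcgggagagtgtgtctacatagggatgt

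**Figure D4:**
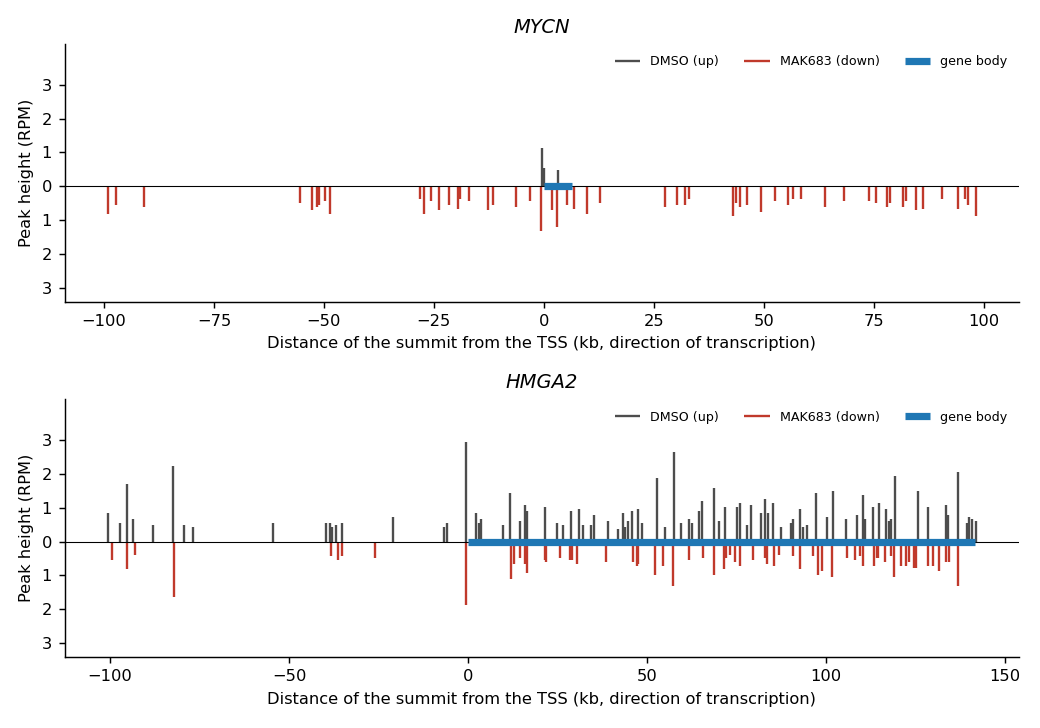
Peak height in RPM (vertical axis, DMSO upward in grey and MAK683 downward in red) by distance of the summit from the TSS in kb (horizontal axis, positive in the direction of transcription) at MYCN and HMGA2. The blue bar is the gene body. DMSO peaks at MYCN lie only at the gene, while 52 low MAK683 peaks lie around it. HMGA2 has peaks along its whole body in both libraries, with 70 in DMSO and 58 in MAK683.

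The additional MAK683 peaks were not limited to the 100 kb around MYCN. From 0.5 Mb upstream to 4 Mb downstream of its TSS, a window set after the data were seen, 66 peaks were called in DMSO and 519 in MAK683, a ratio of 7.86. Within 1 Mb of the TSS there were 25 and 266. For the other 9 genes the ratio within 1 Mb ran from 0.613 at LIN28B to 1.03 at IGF2BP2. Tall sites in the window were near equal in height. There were 20 shared regions whose heights averaged 1 RPM or more, and their median log2 ratio was 0.06, with 10 lower in MAK683, against -0.46 over 20021 such regions genome-wide. The next bins downstream, from 4 Mb to 5 Mb, held no such excess. They had 17 and 18 peaks in the bin from 4 Mb and 72 and 55 in that from 4.25 Mb. The bins from 4.5 Mb and 4.75 Mb had 91 and 95 and 33 and 31. Upstream the edge was less sharp. The bin from -0.75 to -0.5 Mb held 1 DMSO and 0 MAK683 peaks, but that from -1 to -0.75 Mb, outside the window, held 4 and 19. Local background was switched off when the authors called peaks, so a stretch covered more densely as a whole and separate open sites within it cannot be told apart in these files.

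**Figure D5:**
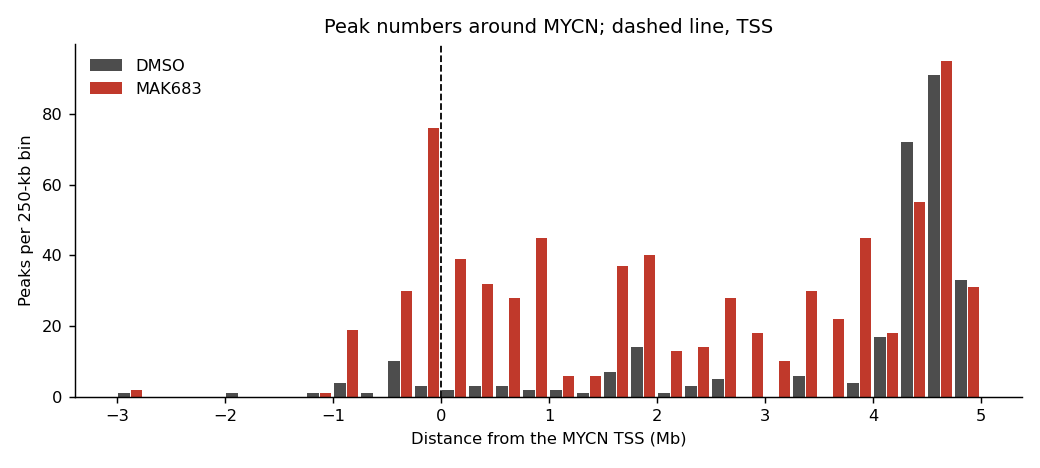
Number of peaks per 250-kb bin (vertical axis) by distance from the MYCN TSS in Mb (horizontal axis) in DMSO (grey) and MAK683 (red). The bin just upstream of the TSS holds 3 DMSO and 76 MAK683 peaks, while the bin from 4.25 Mb holds 72 DMSO and 55 MAK683 peaks.

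The E-box was counted in the members' regions as well. Among 474 summit windows of 201 bases at body and distal regions of the members, 12 held CACGTG, 2.53%, against 3.27% of 199505 windows genome-wide. None of the 23 windows at member promoters did. The AP-1 motif TGANTCA, read alike on both strands and added after the data were seen, was present in 23 of the 474 windows, 4.85%, against 5.91% genome-wide. At MYCN, 2 of 53 windows held CACGTG and 3 held TGANTCA.

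The genes that act with the members were described by the same promoter measure. In the MYC network, which here holds MAX, factors that pair with it and the related MLX and MLXIP, all 9 genes had a promoter peak in both libraries. Lower heights in MAK683 were found at 8 of them, with a median log2 ratio of -0.47, near the 78.4% and -0.42 of all protein-coding genes with a promoter peak. MXD4, a repressor that pairs with MAX, was the only one with an interval that excluded 0, with 42 and 28 tags and a log2 ratio of -0.72 (-1.41 to -0.03), and that interval held the median of all genes.

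All 9 genes of let-7 processing and turnover were also accessible in both libraries and lower in MAK683, with a median log2 ratio of -0.50. Over all protein-coding genes 70.9% were accessible in both, and 78.4% of those with a peak were lower, with a median of -0.42. Intervals excluded 0 for DROSHA, the nuclear microRNA processing enzyme (53 and 35 tags, -0.74, interval -1.35 to -0.12), and for TUT7, a terminal uridylyltransferase that acts with LIN28 on let-7 precursors (58 and 37 tags, -0.79, interval -1.38 to -0.19). Both intervals held the median of all genes. For the let-7 genes the annotation gives the start of the hairpin or host gene, not of the primary transcript. Of 13, 8 had a peak within 3 kb in DMSO and 5 in MAK683, against 72.7% and 78.7% of protein-coding genes. The tallest DMSO peak in the window was the same for MIRLET7A1 and MIRLET7F1, with 12 tags, and had 13 tags at MIRLET7G. Each of these 3 genes, which stand for 2 loci, had 2 DMSO peaks and no MAK683 peak. Their 12 and 13 tags are near the median DMSO peak of 11 tags. Of protein-coding genes, 1.84% had a promoter peak in DMSO only, a share of promoters and not of hairpin starts. MIRLET7D, beside MIRLET7A1 and MIRLET7F1 on chromosome 9, had a peak in both libraries, with 18 and 14 tags. The tallest let-7 peak was at MIRLET7I, with 45 and 37 tags, a log2 ratio of -0.42 (-1.05 to 0.21).

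Among 9 other oncofetal genes, 7 had a promoter peak in both libraries, with 5 of the 8 genes that had any peak lower in MAK683 and 3 higher. Over all protein-coding genes 70.9% had a peak in both, and 78.4% of those with any peak were lower. SALL4, a zinc finger factor of stem cells, had 44 and 22 tags, a log2 ratio of -1.14 (-1.88 to -0.40), an interval that also held the median of all genes. DLK1, an imprinted growth regulator, had no DMSO peak and 14 tags in MAK683, and AFP, the fetal albumin gene, had no peak. A promoter peak in MAK683 only was found at 7.87% of all protein-coding genes. Of 8 noncoding RNA genes next to the members, HMGA2-AS1 shared the HMGA2 body site described above, CASC11 and MYCNOS shared the promoter peaks of MYC and MYCN, and MYCNUT near MYCN had 12 tags in MAK683 and no DMSO peak. PVT1 had 31 and 25 tags, a log2 ratio of -0.45 (-1.21 to 0.31).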

How the data were processed

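The members and lists were chosen with earlier results of these data known. According to the study's methods, trimming used Trim-galore and alignment to hg19 used Bowtie2. The authors called peaks with MACS 2.1.1.20160309 in each library separately, per the file headers, and the methods name another version. The shift was -100 bp and the extension 200 bp, with 1 tag per position, a q-value threshold of 0.05, single-end mode, no control and no local background. The deposited pileup is a signal in whole tags before any depth scaling. Fold enrichment, as deposited, is a ratio to the background of the library. The −log10 p-value and −log10 q-value that the authors deposited depend on depth, and the q-value served only as a filter. The positions were used as the authors gave them.

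Heights were divided by the tags left after filtering (of 23901891 and 26692938) and multiplied by 1000000. Genes were those of GENCODE 44 lifted to GRCh37, 64449 in all, with 1 TSS each, that of the canonical transcript where marked. Peaks that overlapped by 1 bp were merged into regions. Where a library had no promoter peak, a floor of 0.361 RPM (6 tags in DMSO) stood in for it in medians and percentiles. Heights have 95% Clopper-Pearson intervals, ratios Poisson intervals on the log scale and medians order-statistic intervals. The intervals of heights and ratios cover counting error only, and those of medians the spread over genes or regions. Those of peak-number ratios treat peaks as independent, though peaks of one locus are not replicates. None covers the spread between cultures, since each group had 1 library. PCR copies were not marked by molecular identifiers. Regions named were the tallest non-promoter region of each member, all of 1.5 RPM or more whose interval excluded 0, and all of 15 tags or more in 1 library. Pathway genes were named where the interval excluded 0. The let-7, DLK1, AFP, MYCNUT and PVT1 values, the MYC site 2.09 kb upstream and the sequences printed were chosen after values were seen. Promoter and microRNA sequences are from RefSeq and summit windows from GRCh37. Code was tested on simulated data. Python 3.11.15, numpy 2.4.6, pandas 2.3.3, scipy 1.17.1 and matplotlib 3.10.9 were used. A label-check gene is not reported here.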

Additional observations from a re-analysis of the deposited data

How the results depend on the processing

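Promoter peaks were found for all 10 members in both libraries under each of the 6 other settings. The 10 promoter ratios stayed within their counting intervals in all 90 recomputations, with 3 of these of the other sign, all at MYCL. The −log10 q filter of 5 and the limit to genes with a peak in both libraries changed none of these ratios. Unscaled tags and the centrings shifted all 10 by a constant too small to leave any interval. These settings could therefore not have moved a ratio out. The members' median promoter ratio stayed within its interval in the 8 planned settings and was -0.073 when centred on the median of all promoters, a choice made after seeing the data. For the ratio of gene-body peaks the value left its interval only under the stricter −log10 q filter of 10 (0.353). Under that filter the ratio over all protein-coding genes also fell, to 0.707. Without IGF2BP2, a choice made after seeing the data, the members' gene-body ratio was 0.587, from 143 and 84 peaks. The distal ratio was 0.640 and 0.568 under −log10 q filters of 5 and 10, 0.636 with equal peak numbers and 0.646 without MYCN; over all protein-coding genes the first 3 settings gave 0.764, 0.748 and 0.747. The median of shared regions was -0.36 without depth scaling and -0.40 by fold enrichment. Why these values moved was not tested, beyond the fewer low peaks that strict filters and equal numbers keep. No paired analysis was possible because each group had 1 library. At 19 to 58 tags per promoter, depth limits every single ratio.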
